A study of Mus musculus with 6 samples.

Results

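The interleukin-1 system of infarct macrophages was described through 9 genes: the ligands Il1a, Il1b and Il18, the signaling receptor Il1r1 and its partner Il1rap, and the inhibitors Il1rn, Il1r2, Il18bp and Irak3. They were taken by gene symbol from the deposited count table, which listed 54532 genes, and all 9 had counts in every library and were tested. RNA-seq libraries were made from Ly6G- CD11b+ cells, which were isolated with magnetic beads from C57BL/6 hearts of 12-week-old mice at 7 days after permanent occlusion of the left anterior descending coronary artery. The control group was ITGA5 fl/fl (n = 3), whose floxed Itga5 alleles remain intact because no Cre is present. The other group was Myα5KO (n = 3), littermates that carried the same floxed alleles together with a Cre driven by the LyzM promoter. Cre from this promoter acts in myeloid cells broadly, so granulocytes and monocytes are targeted along with macrophages. The controls carry no Cre that would balance its own effects. Separately, the study compared LyzM-Cre mice with Cre-negative littermates at 7 days after infarction. It found no significant difference in ejection fraction, ventricular volume or vessel density, and that comparison was not of RNA. The labels give no animal number, batch or sex, and each library is treated as a separate heart.

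Interleukin-1α and interleukin-1β are the agonists of the IL-1 receptor. The first is active as a precursor and is released by dying cells, and the second is made as an inactive precursor that caspase-1 cleaves in the inflammasome. Both bind the receptor IL1R1, which recruits the accessory protein IL1RAP and signals through MyD88 and the IRAK kinases to NF-κB. The system has inhibitors at each level: a soluble receptor antagonist (Il1rn), a decoy receptor that binds ligand without signaling (Il1r2), a soluble trap for interleukin-18 (Il18bp), and an IRAK family member that restrains the signal inside the cell (Irak3, also called IRAK-M). Macrophages of the infarct are a known source of IL-1, which drives early inflammation after coronary occlusion.

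The libraries held 15424451 to 18419287 counts. Itga5, the targeted gene, fell from 607 CPM in control to 48.7 CPM in Myα5KO cells (group means), so the labels matched the genotype. CPM are counts normalized for depth and, by the TMM method of edgeR, for composition. All 10 macrophage-defining markers were detected, and their summed level ran from 15165 to 15441 CPM in the controls and from 13410 to 14199 CPM in the knockouts. The groups did not overlap, with means of 15295 and 13764 CPM (exact two-sided permutation p = 0.1, adjusted p = 0.167 over 10 marker lists). Cd14, a coreceptor for bacterial lipopolysaccharide, was lower in Myα5KO cells (log2 fold change -0.45, edgeR adjusted p = 0.00413). Its means were 4755 CPM in controls and 3489 CPM in knockouts. Fcgr1, a receptor for immunoglobulin G, was higher (0.27, adjusted p = 0.0215). The other 8 markers, Csf1r, Adgre1 and Mertk among them, were not called. Ly6g, the antigen used to remove neutrophils, had 0 to 2 counts per library. In RNA of a bulk cell suspension, fewer cells of a type and less RNA per cell cannot be told apart.

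Of the 9 genes, 3 were lower in Myα5KO cells (Il1a, Il1r1 and Il1b), none was higher, and 6 were not called at an adjusted p of 0.05 in edgeR's quasi-likelihood test. The count of higher genes was also 0 in all 15 alternatives, DESeq2 and limma among them. Among all 14522 tested genes, 5.19% were called lower and 3.56% higher. At an unadjusted p under 0.05, 4 of the 9 passed, these 3 and Il1rn, all of them lower, against 23.1% of all tested genes in either direction. The CPM values of both groups did not overlap for 4 of the 9 genes, 3 lower and 1 higher, against 28.6% of all tested genes. The median log2 fold change was -0.05 over the 9 genes and 0.01 over all tested genes. Il1a and Il1b were singled out by the study from these same libraries, so their presence among the lower genes is not independent evidence. The study also reported that ITGA5 inhibition in cultured macrophages did not change these genes consistently.

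**Figure D1:**
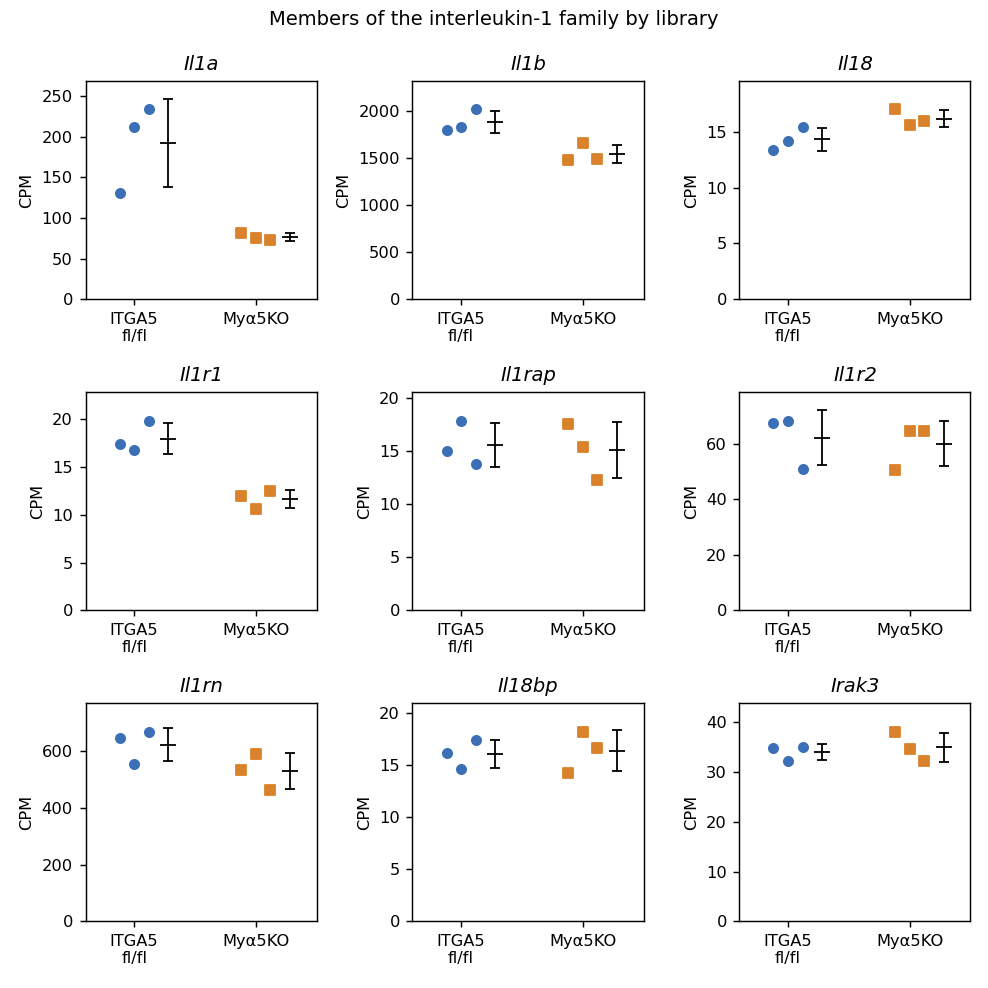
CPM (vertical axes, from 0) of the 9 genes in the 3 ITGA5 fl/fl libraries (blue circles) and the 3 Myα5KO libraries (orange squares), in replicate order, with the mean and SD of each group as a bar. The groups are apart for Il1a, Il1b, Il18 and Il1r1 and overlap for the other 5 genes.

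The starts of Il1a and Il1b are shown because these neighboring ligand genes changed by different amounts. Il1a lies at chr2:129299610-129309972 and Il1b at chr2:129364570-129371139, both on the minus strand of GRCm38, with a gap of 54597 bases between them. The lines below give the 250 bases upstream of each annotated start, from RefSeq (GRCm38.p6), at chr2:129309973-129310222 for Il1a and chr2:129371140-129371389 for Il1b, written 5′ to 3′ on the minus strand. Capitals mark matches to the motifs named after them.
Il1a: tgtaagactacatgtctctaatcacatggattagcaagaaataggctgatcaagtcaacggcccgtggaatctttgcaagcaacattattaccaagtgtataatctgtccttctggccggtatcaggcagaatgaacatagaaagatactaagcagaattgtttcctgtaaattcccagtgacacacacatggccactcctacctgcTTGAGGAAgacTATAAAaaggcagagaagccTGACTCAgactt
Il1b: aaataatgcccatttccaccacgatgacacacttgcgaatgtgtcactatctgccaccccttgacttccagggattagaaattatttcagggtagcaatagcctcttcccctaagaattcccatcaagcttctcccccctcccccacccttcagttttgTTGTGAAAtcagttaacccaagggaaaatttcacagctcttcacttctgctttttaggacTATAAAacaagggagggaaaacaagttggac
Il1r1 was also called. It has a pair of annotated starts in the RefSeq table, on the plus strand of chromosome 1, and the upstream bases are at chr1:40224830-40225079 for the first and chr1:40266336-40266585 for the second.
Il1r1 first start: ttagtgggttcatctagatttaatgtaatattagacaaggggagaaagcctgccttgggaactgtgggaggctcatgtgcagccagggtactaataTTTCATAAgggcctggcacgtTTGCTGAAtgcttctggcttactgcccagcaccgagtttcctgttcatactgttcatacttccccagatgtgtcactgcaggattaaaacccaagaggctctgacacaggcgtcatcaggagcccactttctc
Il1r1 second start: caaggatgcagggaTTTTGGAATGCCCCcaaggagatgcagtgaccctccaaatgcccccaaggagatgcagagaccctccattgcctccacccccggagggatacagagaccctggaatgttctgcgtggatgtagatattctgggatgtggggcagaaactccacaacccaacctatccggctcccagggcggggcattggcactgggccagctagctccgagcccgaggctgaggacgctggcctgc

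Both ligand genes carried a TATA box (TATAAA) close to the start, at -32 to -27 in Il1a and at -31 to -26 in Il1b, counted from the base before the start as -1. In Il1a, a match to the AP-1 motif (TGANTCA) lay at -12 to -6 and one to the C/EBP motif (TTNCNNAA) at -43 to -36, and in Il1b a C/EBP match lay at -91 to -84. The first Il1r1 start had C/EBP matches at -154 to -147 and at -133 to -126. The second had a C/EBP match at -236 to -229, which overlaps a match to the NF-kappaB consensus at -232 to -223 within a single run of capitals. The search covered both strands of 300 bases per start (250 before, 50 after) and also the CRE motif (TGACGTCA), which matched in none of these windows. Of 32544 distinct 300-base windows at annotated starts, 13.6% held TATAAA, 7.79% the AP-1, 1.8% the CRE, 40.7% the C/EBP and 8.49% the NF-kappaB motif. All 9 genes were matched to the table, with 13 starts in all. A match is a description of the letters and was not tied to binding in these cells.

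The ligands differed in how they changed. Il1a (ENSMUSG00000027399), the alarmin, was at 131, 211 and 233 CPM in ITGA5 fl/fl and at 81.7, 75.3 and 72.7 CPM in Myα5KO libraries. Each knockout library was below each control, and the lowest control was the first replicate. The group means were 192 ± 54.1 and 76.6 ± 4.65 CPM (SD, n = 3), so that 39.9% remained in the knockouts. Its log2 fold change was -1.33 (SE 0.15, 95% interval -1.66 to -0.99) with an edgeR adjusted p of 0.000272. The coefficient of variation between libraries was 28.2% in ITGA5 fl/fl and 6.08% in Myα5KO cells. Among the 9614 tested genes with a mean of at least 100 counts, 15 had a more negative fold change, since Il1a ranked 16. With each library left out in turn, the log2 fold change of Il1a was -1.54 to -1.16, the former without ITGA5 fl/fl library 1, and the gene was called each time.

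Il1b (ENSMUSG00000027398), the secreted agonist, was the most abundant of the 9 genes, at 1798, 1830 and 2014 CPM in controls and 1482, 1654 and 1485 CPM in knockouts. The groups did not overlap, yet the gap between the lowest control and the highest knockout library was small beside the level of the gene. Il1b had a log2 fold change of -0.29 (SE 0.08, 95% interval -0.46 to -0.12, edgeR adjusted p = 0.0359), which left 81.9% of the control level. This call was close to the threshold. It was lost without ITGA5 fl/fl library 1, 2 or 3 (adjusted p of 0.0534, 0.0939 and 0.166 in edgeR), and without Myα5KO library 1 or 3 (0.0866 and 0.057). Without Myα5KO library 2 it held, with an adjusted p of 0.0398. The direction was the same in all 15 alternatives, with log2 fold changes of -0.35 to -0.21, and 6 of them kept the call. Il1b fell by 340.7 CPM in absolute terms against 115.3 CPM for Il1a.

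Il18 (ENSMUSG00000039217), a further ligand that needs caspase-1, was at 13.4, 14.2 and 15.5 CPM in ITGA5 fl/fl and at 17.0, 15.6 and 15.99 CPM in Myα5KO libraries. It was the single gene of the 9 whose Myα5KO values all lay above the controls, by a narrow margin. The log2 fold change was 0.17 (SE 0.10, 95% interval -0.04 to 0.39, edgeR adjusted p = 0.328), and Il18 was not called in any of 15 alternatives (adjusted p 0.116 to 0.575).

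The receptor chains followed different patterns. Il1r1 (ENSMUSG00000026072), the signaling receptor, was at 17.4, 16.7 and 19.9 CPM in ITGA5 fl/fl and at 12.0, 10.6 and 12.5 CPM in Myα5KO libraries. These levels rest on 198 to 349 counts per library, and all knockout values were below all control values. The log2 fold change was -0.62 (SE 0.11, 95% interval -0.86 to -0.39, edgeR adjusted p = 0.00384), which left 64.9% of the control level, and it was called in all 15 alternatives. Il1r1 is also a gene of stromal cells. The 8 fibroblast markers summed to 1624 to 1903 CPM in controls and 1217 to 1583 CPM in knockouts (exact two-sided permutation p = 0.1, the smallest this design allows, adjusted p = 0.167 over 10 marker lists). Of these 8 markers, all were tested and none was at 0. Postn, a matricellular protein gene, was the 1 marker called lower (log2 fold change -0.40, edgeR adjusted p = 0.0261), against 5.19% of all tested genes. Not called were Col1a1 (-0.34, adjusted p = 0.106), Col1a2 (-0.30, 0.0884), Col3a1 (-0.29, 0.0557), Lum (-0.28, 0.1), Pdgfra (-0.28, 0.275), Dcn (-0.07, 0.612) and Thy1 (-0.0045, 0.993). The part of fibroblast RNA in the Il1r1 difference was not tested.

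Il1rap (ENSMUSG00000022514), the accessory chain, was at 15.01, 17.9 and 13.8 CPM in controls and 17.6, 15.4 and 12.3 CPM in knockouts, so the groups overlapped widely. Its log2 fold change was -0.04 (SE 0.14, 95% interval -0.34 to 0.25, edgeR adjusted p = 0.885). Il1r2 (ENSMUSG00000026073), the decoy receptor, was at 67.5, 68.4 and 51.0 CPM in ITGA5 fl/fl and at 50.6, 64.9 and 64.7 CPM in Myα5KO libraries. Each group held a single library near 51 CPM, the third control and the first knockout. Il1r2 had a log2 fold change of -0.05 (SE 0.11, 95% interval -0.30 to 0.20, edgeR adjusted p = 0.834). For both genes the sign turned with library-size scaling (0.04 for Il1rap and 0.03 for Il1r2), so no direction is given. Il1r2 is also a gene of neutrophils, and 7 of 12 granulocyte markers were higher in Myα5KO cells, against 3.56% of all tested genes. The tested markers not called were Mmp8 (log2 fold change 0.47, edgeR adjusted p = 0.0665), Retnlg (-0.65, 0.311) and Prtn3 (-0.39, 0.383). The summed level of the 12 markers was 56.9 to 78.8 CPM in controls and 95.1 to 217 CPM in knockouts (exact permutation p = 0.1, adjusted p = 0.167). Their part in the Il1r2 values was not tested. Of the 12, none was at 0 in all libraries, but Ly6g and Cxcr2 were too low to be tested. Cxcr2 had 7 to 8 counts per library.

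Among the inhibitors, Il1rn (ENSMUSG00000026981), the receptor antagonist, was at 646, 556 and 669 CPM in ITGA5 fl/fl and at 533, 591 and 464 CPM in Myα5KO libraries. The highest knockout library lay above the lowest control, so the groups overlapped. Its log2 fold change was -0.24 (SE 0.09, 95% interval -0.44 to -0.03) with an unadjusted p of 0.0255 and an edgeR adjusted p of 0.148. It was called in 1 of 15 alternatives, the one with no count filter (adjusted p = 0.0348). The interval of Il1rn includes the fold change of Il1b.

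Il18bp (ENSMUSG00000070427), the soluble trap of interleukin-18, was at 16.2, 14.6 and 17.4 CPM in controls and 14.3, 18.2 and 16.7 CPM in knockouts. Its log2 fold change was 0.03 (SE 0.11, 95% interval -0.21 to 0.27, edgeR adjusted p = 0.910). Irak3 (ENSMUSG00000020227), the intracellular inhibitor, was at 34.7, 32.1 and 34.9 CPM in controls and 38.0, 34.6 and 32.1 CPM in knockouts, with a log2 fold change of 0.04 (SE 0.08, 95% interval -0.14 to 0.22, adjusted p = 0.816). The ranges of controls and knockouts overlapped for both genes. The interval for Irak3 spans less than that for any other member but Il1b.

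**Figure D2:**
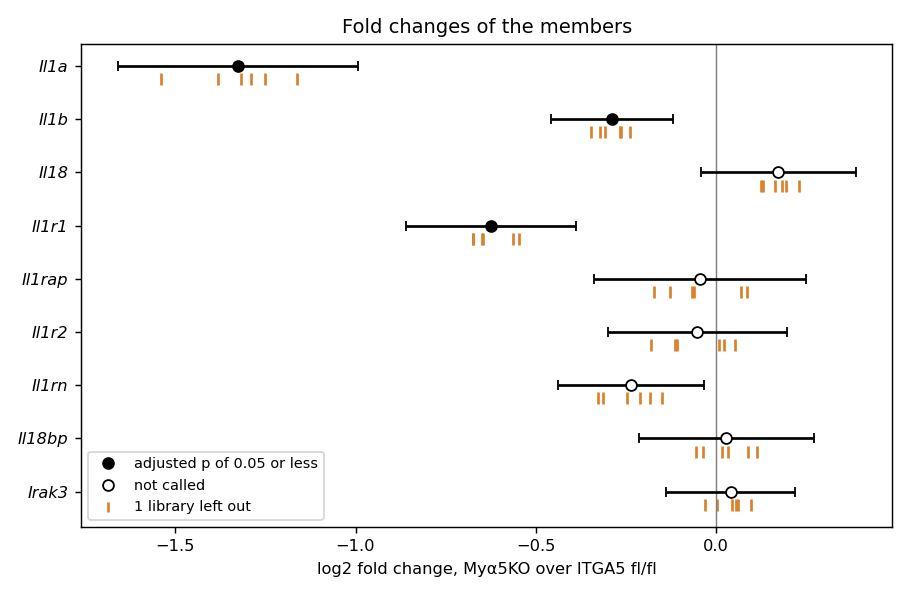
Log2 fold change of the 9 genes (horizontal axis, Myα5KO over ITGA5 fl/fl) from edgeR with its 95% interval. Filled points passed an adjusted p of 0.05, open points did not, and the small ticks are the values with 1 library left out. Il1a sits at -1.33, Il1r1 at -0.62 and Il1b at -0.29, and the intervals of Il18, Il1rap, Il1r2, Il18bp and Irak3 include 0.

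The genes also spanned a wide range of levels. Per gene length, in the deposited FPKM (fragments scaled by gene length and library size), Il1b was at 982 ± 62.2 FPKM in ITGA5 fl/fl and 801 ± 54.6 FPKM in Myα5KO cells (SD, n = 3), and it ranked 31 among the 14522 tested genes in the controls. Il1rn followed at 112 ± 11.1 and 94.9 ± 12.0 FPKM and Il1a at 96.7 ± 27.2 and 38.5 ± 2.59 FPKM. Il1r2 was at 32.5 and 31.2 FPKM, Il18 at 13.9 and 15.6 FPKM, Irak3 at 9.19 and 9.42 FPKM, and Il18bp at 5.28 and 5.37 FPKM. The signaling receptor and its partner were lowest, Il1r1 at 2.81 and 1.82 FPKM and Il1rap at 1.36 and 1.32 FPKM. The decoy Il1r2 thus exceeded the signaling receptor in each library, on this scale.

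The order of the 9 genes was the same in both groups. In ITGA5 fl/fl libraries Il1rn and Il1a overlapped, and all other neighbors in the order were apart. In Myα5KO libraries no neighbors overlapped. The deposited length is the union of exons of all transcripts, which lowers the FPKM of genes with many isoforms such as Il1rn and Il1rap. Rescaled to the longest coding transcript, Il1rn was at 251 and 212 FPKM, Il1a stayed at 96.7 and 38.5 FPKM, and Il1r2 was at 43.7 and 42.0 FPKM, so that the mean of Il1a was above that of the decoy in ITGA5 fl/fl and below it in Myα5KO cells, where their libraries overlapped. On that scale the mean of Il1rap (3.42 and 3.32 FPKM) was also above that of Il1r1 (3.08 and 1.99 FPKM), with overlap in ITGA5 fl/fl libraries. This rescaling was chosen after the data were seen.

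**Figure D3:**
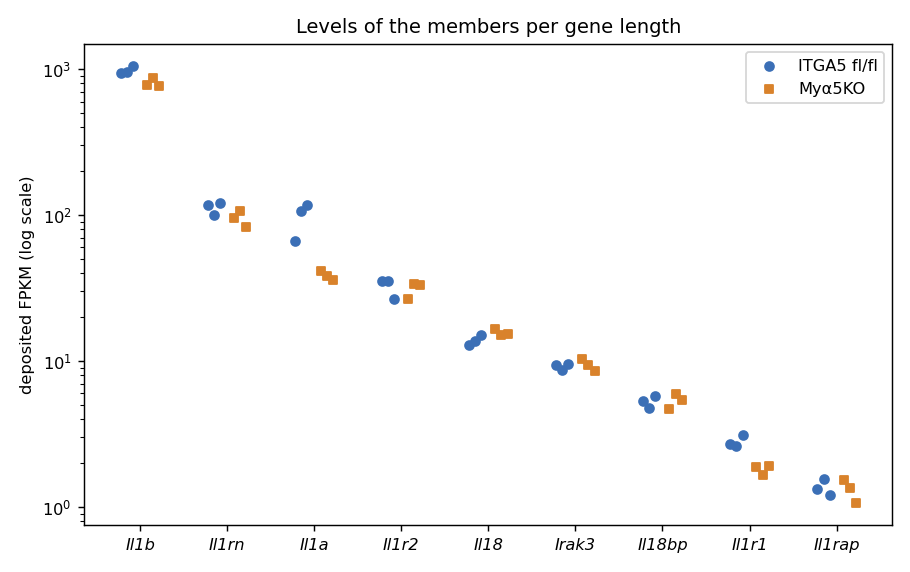
Deposited FPKM of the 9 genes (vertical axis, log scale) in each ITGA5 fl/fl (blue circles) and Myα5KO (orange squares) library, ordered by the control mean. Il1b lies near 1000 FPKM and Il1rap near 1 FPKM, and the order of the means is the same in both groups.

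Ratios within a library do not depend on its scaling, so they were used to set agonists against inhibitors. The antagonist stood at 0.124, 0.105 and 0.114 FPKM per FPKM of Il1b in ITGA5 fl/fl and at 0.124, 0.123 and 0.108 in Myα5KO libraries. The ranges overlapped, and the means were 0.114 ± 0.00957 and 0.118 ± 0.00913 (SD, n = 3). Relative to Il1a, the antagonist was at 1.76, 0.938 and 1.02 in ITGA5 fl/fl and at 2.33, 2.80 and 2.28 in Myα5KO libraries, a mean of 1.24 against 2.47. Il1rn relative to the summed agonists was 0.104 and 0.113, again with overlap.

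The agonists were also set against each other. Il1a made up 6.56%, 10.04% and 10.1% of the summed Il1a and Il1b FPKM in ITGA5 fl/fl libraries and 5.06%, 4.21% and 4.52% in Myα5KO libraries. The sum itself was 1079 ± 84.3 FPKM in ITGA5 fl/fl and 839.8 ± 54.4 FPKM in Myα5KO cells, with no overlap. The decoy per signaling receptor (Il1r2 over Il1r1) was 13.0, 13.6 and 8.56 in controls and 14.1, 20.4 and 17.3 in knockout libraries. These groups were apart by a narrow margin, 13.6 against 14.1. Il1rap over Il1r1 (means 0.490 and 0.730) and Il18 over Il18bp (2.64 and 2.95) overlapped, and Il1b over Il18 did not, at 70.8 ± 1.503 and 51.5 ± 5.22. No test was made of these ratios, which share genes.

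**Figure D4:**
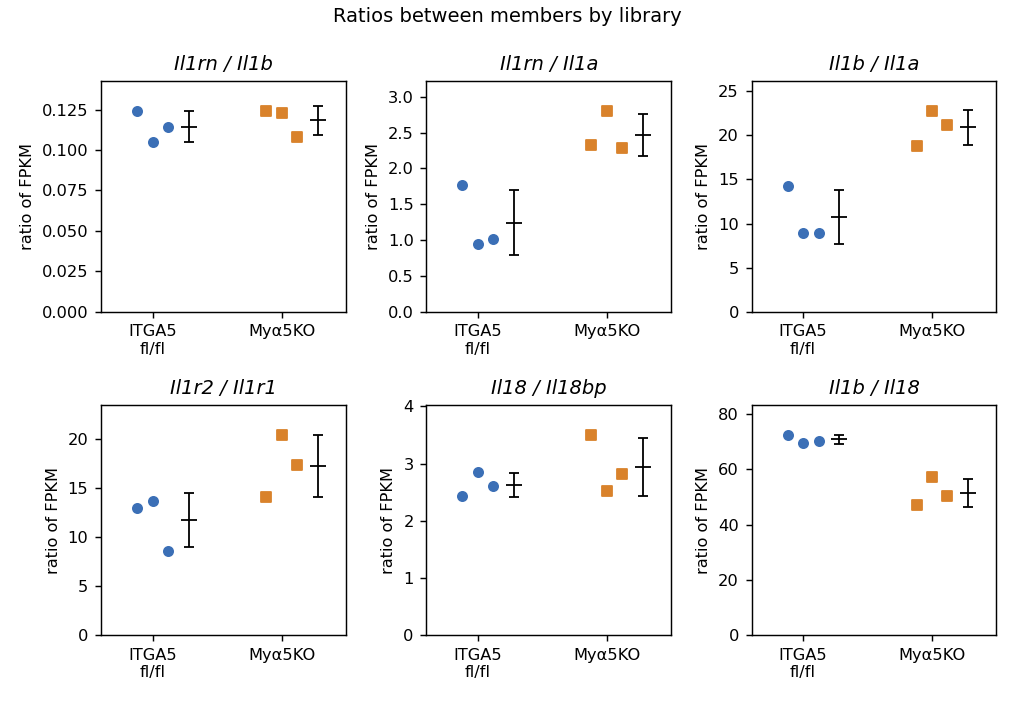
Ratios of FPKM between members (vertical axes, from 0) by library, with mean and SD as a bar. Il1rn over Il1b and Il18 over Il18bp overlap between ITGA5 fl/fl (blue circles) and Myα5KO (orange squares), whereas Il1rn over Il1a, Il1b over Il1a, Il1r2 over Il1r1 and Il1b over Il18 do not.

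Il1r2 and Il1r1 belong to a row of 6 receptor genes on the plus strand of chromosome 1, which spans 477627 bases of GRCm38 from Il1r2 to Il18rap. Within it Il1r1 (chr1:40225080-40317257) was the single gene called. Its neighbors were Il1r2 (-0.05, adjusted p = 0.834), Il1rl2, the receptor of interleukin-36 (0.25, 0.282), Il1rl1, the receptor of interleukin-33 (0.30, 0.353), Il18r1 (0.02, 0.979) and Il18rap (0.19, 0.448), each given as the log2 fold change and edgeR adjusted p. Il18r1 and Il18rap form the receptor of interleukin-18 and stood at 1.75 and 12.7 CPM in controls. Il1rn lies on chromosome 2 as well, at chr2:24336853-24351494 and 104948115 bases from Il1a. The other members are Il18 (chr9:50554827-50581840), Il18bp (chr7:102014885-102018690), Irak3 (chr10:120141648-120202130) and Il1rap (chr16:26581704-26730117).

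Further genes of the pathway were examined as 5 lists of 66 genes, of which 58 were tested. Of these, 14 were lower and 2 were higher, and the median log2 fold change was -0.04. Called in either direction were 27.6% of the 58, against 8.75% of all tested genes. By list, the share was 0% for other ligands and receptors, 13.3% for processing and release and 12.5% for receptor-proximal signaling. It was 62.5% for negative regulators and 58.3% for response genes. The lists were chosen with earlier results of these data known, so the shares are not independent evidence. Without ITGA5 fl/fl library 1, 2 or 3, or Myα5KO library 2 or 3, 1 gene rather than 2 was higher. The 7 tested genes of the remaining ligand and receptor list were not called, and 0 had an unadjusted p under 0.05, against 23.1% of all tested genes. Sigirr, an inhibitory receptor, was at -0.10 (adjusted p = 0.828) and Il33, an alarmin, at -0.02 (0.981) on the log2 scale. The 6 untested genes of that list, among them most of the interleukin-36 ligands, were near or at 0 counts.

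Of 15 genes for processing and release of the ligands, 2 were lower and 13 were not called, with a median of 0.04. Nlrp3, the sensor of the main inflammasome, was at 968 ± 13.2 CPM in controls and 775 ± 63.7 CPM in knockouts (log2 fold change -0.32, edgeR adjusted p = 0.0172), and its call was lost without ITGA5 fl/fl library 2 (0.0594) or 3 (0.0704). Ninj1, which ruptures the plasma membrane of dying cells, was also lower (-0.38, adjusted p = 0.0037). Casp1, the protease that matures Il1b and Il18 products, was at 42.7, 42.2 and 40.5 CPM in controls and at 49.1, 44.9 and 47.2 CPM in knockout libraries. The groups were apart, but Casp1 did not pass (0.17, adjusted p = 0.157), except with library-size scaling (0.25, adjusted p = 0.0352).

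Of 16 receptor-proximal signaling genes, 2 were lower and 14 were not called, with a median of 0.04. Irak2, a kinase that sustains the signal, was lower (-0.46, edgeR adjusted p = 0.00197), and so was Tollip, an adaptor that binds IRAK1 (-0.28, adjusted p = 0.0236), whose call was lost without ITGA5 fl/fl library 1 or 3 or Myα5KO library 2 or 3 (0.0608, 0.113, 0.0503 and 0.0511). Myd88, Irak1, Irak4 and Map3k7 were not called. Of 8 genes listed here as negative regulators, 4 were lower and 1 higher, with a median of -0.25. Not called in that list were Cyld (log2 fold change -0.18, edgeR adjusted p = 0.141), Otud7b (-0.15, 0.409) and Nfkbiz (0.10, 0.44). Tnip1, which binds the A20 deubiquitinase, was lower in each library (184, 180 and 186 CPM in controls, 116, 122 and 104 CPM in knockouts; log2 fold change -0.68, adjusted p = 0.000129).

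Tnfaip3 (A20 itself), Nfkbia, which holds NF-κB in the cytoplasm, and Zc3h12a, an RNase that degrades cytokine mRNA, were lower too, with log2 fold changes of -0.34, -0.32 and -0.32 and edgeR adjusted p of 0.0272, 0.0359 and 0.0117. NF-κB itself induces these genes, as background. The call of Tnfaip3 was lost without ITGA5 fl/fl library 2 or 3 or Myα5KO library 1 (adjusted p of 0.0761, 0.12 and 0.0715), and that of Zc3h12a without ITGA5 fl/fl library 2 (0.0531). Nfkbia lost its call without ITGA5 fl/fl library 2 or 3 or Myα5KO library 1 or 2 (0.125, 0.16, 0.1 and 0.0581). Dusp1, a phosphatase of MAP kinases, was the higher gene of the list (0.27, adjusted p = 0.0467), and it was called in 1 of 6 fits that left out a library, the one without Myα5KO library 1.

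The response list holds genes that IL-1 is known to induce. Of its 12 tested genes, 6 were lower and 1 was higher, with a median log2 fold change of -0.57. Cxcl3, a neutrophil chemokine, was at 101, 171 and 192 CPM in controls and at 49.99, 54.8 and 44.5 CPM in knockout libraries (log2 fold change -1.64, edgeR adjusted p = 0.00016). Its first control library was the lowest of the 3, as for Il1a. Cxcl1 (-0.97, adjusted p = 0.000128) and Cxcl2 (-0.81, adjusted p = 0.000139) are chemokines of the same receptor and were lower as well. Il6 (-0.95, 0.0039), Csf3 (-1.09, 0.00188) and the acute-phase gene Saa3 (-1.42, 0.00944) were lower, and Saa3 was the most variable, at 67.6, 202 and 133 CPM in controls. By DESeq2, Saa3 missed the threshold (adjusted p = 0.0506). Il6 and Cxcl3 were named by the study from these libraries too, and it likewise reported no consistent change of these 2 genes in cultured macrophages. The study also reported Cxcl1, Cxcl2 and Csf3 as lower, by a PCR array on infarct macrophages of the same genotypes. Its methods state that RNA of cells isolated in this way served both the array and the sequencing. The presence of Il6, Cxcl3, Cxcl1, Cxcl2 and Csf3 among the lower genes is therefore not independent evidence. Ccl2 (0.09) and Ccl7 (-0.02), which attract monocytes, were not called, and Ptgs2, the prostaglandin synthase gene, was at -0.32 (adjusted p = 0.0583).

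Lcn2, an iron-binding protein gene of the response list, was higher instead, at 2.35, 2.11 and 2.67 CPM in controls and at 7.67, 3.37 and 10.8 CPM in knockout libraries (log2 fold change 1.61, edgeR adjusted p = 0.00945). Lcn2 is also a gene of developing granulocytes. The granulocyte marker sum took the same order over the knockout libraries, at 174, 95.1 and 217 CPM, and was 68.6, 56.9 and 78.8 CPM in the controls. The part of granulocyte RNA in the Lcn2 values was not tested.

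**Figure D5:**
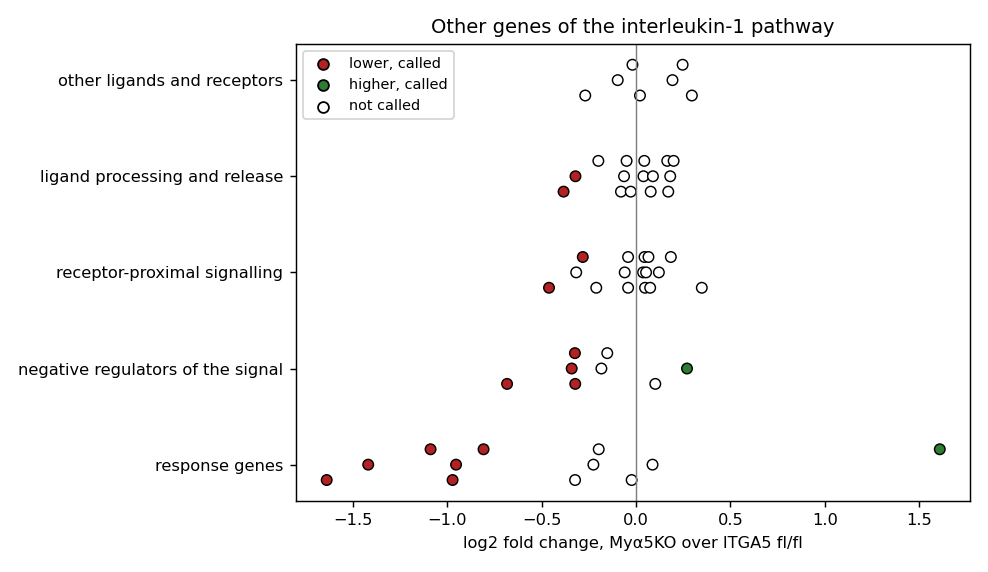
Log2 fold change (horizontal axis, Myα5KO over ITGA5 fl/fl) of the 58 tested pathway genes in 5 lists, 1 point per gene, with the vertical offset for legibility. Red points were called lower (14) and green points higher (2). The response genes hold 6 of the red points and reach -1.64, and the remaining ligands and receptors hold none.

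Markers of other cells were counted in the same libraries. The 6 monocyte markers summed to 303 to 385 CPM in ITGA5 fl/fl and to 459 to 477 CPM in Myα5KO libraries (exact permutation p = 0.1), with 3 called higher, among them Ccr2, the receptor for Ccl2 (log2 fold change 0.58, edgeR adjusted p = 0.00111), and Ly6c2 (0.71, adjusted p = 0.00225). The 6 B cell markers summed to 111 to 152 CPM and 155 to 237 CPM (exact permutation p = 0.1), with 2 higher. The 6 cardiomyocyte markers summed to 18.8 to 21.3 CPM and 12.3 to 16.1 CPM (exact permutation p = 0.1), with 2 lower. For all 3 lists the p adjusted over 10 lists was 0.167. Dendritic cell, endothelial, T and NK cell and mast cell sums overlapped between the groups (exact permutation p of 0.5, 0.3, 0.4 and 0.8), and Fcer1a of the mast cell list was at 0 in all libraries. The macrophage-defining, granulocyte and fibroblast sums given above did not overlap between the groups either. The part of these sums, and of the monocyte, B cell and cardiomyocyte sums, in the differences of Il1a, Il1b and Il1r1 was not tested.

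The profile of each ligand over the 6 libraries was compared with 9613 other genes of at least 100 mean counts, by the Pearson correlation of log2 CPM. The points share the contrast between the groups, so the values describe likeness only. Il1a was most like Cd38, an ectoenzyme that consumes NAD (r = 0.996), Cxcl3 (0.994) and Rac2, a GTPase of leukocytes (0.992), and 87 genes exceeded 0.95. Il1r1 ranked 235 (0.918) and Il1b ranked 298 (0.906), so neither was among the closest. Il1b was most like Odc1, the first enzyme of polyamine synthesis (0.998), Sdc1, a heparan sulfate proteoglycan (0.996), and Cdkn1a, a cell cycle inhibitor (0.994), and Il1rn ranked 813 (0.831). Il18 was most like Cbx5, a heterochromatin protein (0.992), Clec10a, a lectin of macrophages (0.989), and Serpinb9, a granzyme B inhibitor (0.987).

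Reads of overlapping genes may add to these counts, since the use of strand in counting is not stated. Il1a shares 222 exonic bases (11.2% of its exons) with Gm14023 on the opposite strand, a transcript with a mean of 79.8 counts. The corresponding values were 25 bases (1.31%) between Il1b and Il1bos, 552 bases (4.86%) between Il1rap and Gm20319, 80 bases (2.64%) between Il18bp and Numa1, and 192 bases (5.22%) between Irak3 and Tmbim4. Numa1 had a mean of 3058.5 counts against 286.7 for Il18bp, and Tmbim4 902.8 against 608.3 for Irak3. Il1bos and Gm20319 had means of 39.8 and 1.33 counts. The part of such reads in the counts of the members was not tested. Il1rn, Il18, Il1r1 and Il1r2 shared no exonic base with another gene in the annotation.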

How the data were processed

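Per the labels and the study's methods, polyadenylated RNA was made into libraries with the NEBNext Ultra kit and read as 150 bp pairs. The authors aligned reads to GRCm38 with TopHat2 2.0.9 and counted them per gene with HTSeq 0.6.1. The deposited counts are whole reads per gene. The authors also deposited FPKM, which equal the counts divided by gene length and a constant per library, and Cufflinks 2.1.1 is named in the submitters' notes. Handling of strand and multi-mapped reads is not given in the sources used here.

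The 9 genes and all lists were chosen with earlier results of these data known. Samples were grouped by title and genotype. The quasi-likelihood test of edgeR 4.0.16 (R 4.3.3) was fitted to 14522 genes passing its default filter (minimum count 10, minimum total 15) with TMM scaling and no covariate, and p-values were adjusted over all of them by Benjamini-Hochberg. Calls are at 0.05. For marker sums the exact permutation test (two-sided) was used. P-values measure the spread between these samples, and counts of amplified reads carry counting error that no molecular identifier corrects. Depth was 15424451 to 18419287 counts per library. Pairs of libraries within a group differed by more than sampling noise (chi-square per degree of freedom at least 5.69).

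Named genes were the 9 members, each pathway-list gene called, Casp1, Il18r1, Il18rap, Il1rl1, Il33 and Sigirr, the 3 genes most like each ligand (log2 of CPM + 0.5), and Itga5. Other pathway and marker genes were named after their values were seen. Alternatives were DESeq2 1.42.0, limma-voom and limma 3.58.1 with trend on log2(FPKM + 1) and log2(FPKM + 0.1) for genes of FPKM at least 1 in at least 3 libraries, library-size and median-ratio scaling, no count filter, 10 counts in every library, the replicate block and each library left out. Scripts were tested on simulated data. There edgeR recovered 56.7% of 1.5-fold, 79.1% of 2-fold and 98.5% of 4-fold changes, and 9.83% of its 173 calls were false. RefSeq promoter windows were matched by symbol.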

Additional observations from a re-analysis of the deposited data

How the results depend on the processing

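Il1a and Il1r1 stayed lower and called in all 15 alternatives, and Il1b stayed lower in 15 but called in 6. Beyond the libraries named in the report, Il1b missed the threshold on log2(FPKM + 1) and log2(FPKM + 0.1) (adjusted p = 0.0756 and 0.0747) and with library-size scaling (0.086). The members called lower numbered 2 to 4 and those higher 0. Genes changed numbered 1271, against 472 and 448 on the 2 FPKM scales and 616 to 1091 with a library left out (616 without ITGA5 fl/fl library 3, 723 without ITGA5 fl/fl library 2, 819 without Myα5KO library 2). Library-size scaling raised the share of higher calls from 40.7% to 70.1% and the median log2 fold change from 0.01 to 0.10, relative to which fold changes are read.

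Pathway genes called higher (2) numbered 0 and 0 on the FPKM scales, 5 with library-size scaling, 1 with median-ratio scaling, 1 with 10 counts in every library and 1 to 2 with a library left out. Those lower (14) numbered 8 and 8 on the FPKM scales. The cause of these shifts was not tested. Signs turned only for genes near 0. With a library left out, log2 fold changes ranged from -0.17 to 0.0851 for Il1rap, -0.18 to 0.0535 for Il1r2, -0.0564 to 0.11 for Il18bp, -0.0293 to 0.10 for Irak3, -0.25 to 0.13 for Il33, -0.20 to 0.20 for Il18r1 and -0.31 to 0.10 for Sigirr. Library-size scaling gave 0.0368 for Il1rap, 0.0288 for Il1r2 and 0.062 for Il33, and limma-voom gave 0.0116 for Il33 and -6e-04 for Il18r1. On the FPKM scales, Nlrp3, Tollip, Tnfaip3, Nfkbia, Dusp1, Il6, Lcn2 and Saa3 also missed the threshold.

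Same-numbered libraries did not deviate together more than others (correlations 0.0505, -0.0481 and 0.0439, against -0.0966 to 0.057 for different numbers). With deviations from means of 3 libraries, this check cannot tell whether the numbers pair them. With the replicate block, 1181 genes were called and 1 pathway gene was higher. Il1b was then at -0.29 with an adjusted p of 0.0649. With 3 libraries per group, small differences in Il18, Il1rap and Il18bp, at 200 to 340 counts, were not resolved.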
